A study of Mus musculus with 24 samples.

Results

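Small nucleolar RNAs (snoRNAs) were examined in mice that lack Thumpd1, the adaptor that brings the acetyltransferase Nat10 to tRNA. The set held every gene of the deposited count table whose symbol is Snord or Snora followed by a number, which gave 141 of 55450 genes. Of these, 99 were box C/D snoRNAs (Snord) and 42 were box H/ACA snoRNAs (Snora). The rule reads symbols and no measured value. A further 1418 genes that the annotation calls snoRNA or scaRNA carry other symbols and were not members.

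Wild-type (WT) and Thumpd1 knockout (KO, Thumpd1-/-) mice had been sampled for RNA from liver, testes and cerebellum, in 6 groups of 4 libraries. Founders were C57BL/6N eggs cut in exon 1 and exon 4 of Thumpd1 with CRISPR-Cas9, several lines were made, and the line used for these libraries was not given in the sources used here. The deletion was germline, so every cell of each KO tissue carried it. Animals were 6 to 12 weeks old, of either sex, with littermates of matched age as controls. Tissue pieces were frozen in RNAlater, total RNA was extracted with Trizol and ribosomal RNA was depleted before a stranded library was read as paired ends. The study describes its RNA-seq replicates as biological, but no label ties a library to an animal, so the p-values measure the spread between these libraries.

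SnoRNAs are short noncoding RNAs that guide enzymes to chosen bases, mostly in ribosomal RNA. Box C/D snoRNAs direct 2′-O-methylation with the protein fibrillarin, and box H/ACA snoRNAs direct pseudouridylation with dyskerin, while a few of either class take part in cleaving the ribosomal RNA precursor. Most vertebrate snoRNAs are cut out of introns of a host gene. Snord13 (U13) guides Nat10 to 18S ribosomal RNA, the counterpart of the role Thumpd1 has for tRNA.

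The sequences below are those of the members on which the results turn. They were read on the gene's strand from mm10 at the GENCODE M21 coordinates. In the Snord sequences capitals mark the first TGATGA, the core of box C, and the last CTGA within the final 15 bases, box D. In the Snora sequences capitals mark ACA within the final 9 bases. Snord17 is shown because it was the only member called between KO and WT among those that passed the filter on low values, and Snord104 as the shortest member detected.
Snord17 (chr2:144265979-144266216, minus strand, 238 bases, in an intron of Snx5): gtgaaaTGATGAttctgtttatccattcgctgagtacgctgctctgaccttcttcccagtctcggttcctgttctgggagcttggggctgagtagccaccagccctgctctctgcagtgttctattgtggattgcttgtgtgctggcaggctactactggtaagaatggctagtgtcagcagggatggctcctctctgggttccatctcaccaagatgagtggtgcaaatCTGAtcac
Snord104 (chr11:106500993-106501062, plus strand, 70 bases, no host gene annotated): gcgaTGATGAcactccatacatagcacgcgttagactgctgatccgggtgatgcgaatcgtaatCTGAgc

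Snord15a and Snord15b are shown because they share a host, Rps3, yet differed in level and in how they varied. Snord15a lies in an intron of Rps3, whereas Snord15b overlaps an annotated Rps3 exon. Their sequences were identical at 101 of 154 aligned positions (65.6%).
Snord15a (chr7:99482785-99482932, minus strand, 148 bases): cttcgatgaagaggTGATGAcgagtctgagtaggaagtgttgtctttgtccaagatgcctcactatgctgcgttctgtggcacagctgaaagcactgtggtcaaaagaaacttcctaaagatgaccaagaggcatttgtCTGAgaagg
Snord15b (chr7:99479563-99479707, minus strand, 145 bases): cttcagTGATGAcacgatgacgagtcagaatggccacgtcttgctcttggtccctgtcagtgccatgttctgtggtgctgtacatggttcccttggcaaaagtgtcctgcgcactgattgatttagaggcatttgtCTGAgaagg

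Snora73a and Snora73b, the mouse E1/U17 RNAs that act in 18S processing, are shown because reads could be divided between such close copies. They were identical at 198 of 205 positions (96.6%). With Snora73a given first and positions counted from the 5′ end, the differences were G3A, G54A, A111G, T164C, G203A, T204A and T205A.
Snora73a (chr4:132352775-132352979, minus strand, 205 bases, in an exon of Snhg3 and an intron of Rcc1): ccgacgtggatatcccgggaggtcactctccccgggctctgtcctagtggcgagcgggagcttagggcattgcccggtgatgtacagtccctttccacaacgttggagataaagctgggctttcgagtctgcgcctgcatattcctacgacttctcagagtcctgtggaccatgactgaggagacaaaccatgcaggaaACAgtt
Snora73b (chr4:132352322-132352526, minus strand, 205 bases, in introns of Snhg3 and Rcc1): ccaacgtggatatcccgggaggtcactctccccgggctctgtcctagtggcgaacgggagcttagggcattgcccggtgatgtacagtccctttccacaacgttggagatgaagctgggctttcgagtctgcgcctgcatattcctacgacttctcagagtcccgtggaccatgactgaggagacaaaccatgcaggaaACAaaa

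The letters of the boxes separated the classes across all 141 members. TGATGA stood in 75 of 99 Snord sequences (75.8%) and in 0 of 42 Snora sequences. CTGA lay within the final 15 bases of 92 of 99 Snord (92.9%) and 3 of 42 Snora (7.14%), whereas ACA lay within the final 9 bases of 40 of 42 Snora (95.2%) and 7 of 99 Snord (7.07%). Only the transcribed strand was searched, and these matches describe letters, not function. By place, 41 Snord and 23 Snora overlapped a host exon on the same strand, 54 and 15 lay in an intron only, and 4 and 4 had no host.

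The table held few reads of snoRNAs. Library totals ran from 16353800 to 37889600 expected counts, and the 141 members together took 1308 to 3326 counts, or 0.00434% to 0.0117% of a library. Levels below are CPM, the count scaled to a common library total of 1000000, and 3 counts, the limit that a count of 0 allows, came to 0.0792 to 0.183 CPM. In all 24 libraries 61 members were at 0, 56 of them Snord and 5 Snora, and 93 members never passed 3 counts. Limits of this kind cover counting error only. Thumpd1 itself was at 9.19 to 26.3 CPM in WT and at 0 to 1.14 CPM in KO libraries, and defining markers of each tissue were present.

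A member was called detected in a tissue when it passed 3 counts in at least 4 of its 8 libraries. By that measure cerebellum had 6 Snord and 14 Snora detected, liver had 6 and 13, and testes had 8 and 12. These were 6.06%, 6.06% and 8.08% of the Snord and 33.3%, 31.0% and 28.6% of the Snora. In all, 26 members (8 Snord and 18 Snora) were detected somewhere and 15 everywhere. The 15 were Snord15a, Snord15b, Snord17, Snord22, Snord104 and Snord118 with Snora21, Snora23, Snora44, Snora68, Snora73a, Snora73b, Snora74a, Snora78 and Snora81.

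A further 8 members were detected in 1 tissue each. Snord13, Snord8 and Snora3 were detected in testes, Snora17 and Snora24 in liver, and Snora30, Snora41 and Snora47 in cerebellum. Snord13 had 15, 8, 4 and 5 counts in the WT testes libraries and 11, 4, 2 and 4 in the KO. In cerebellum it had 1, 1, 2 and 3 counts in WT and 3, 4, 4 and 1 in KO, and in liver 5, 1, 2 and 0 in WT and 0, 1, 4 and 4 in KO. WT and KO overlapped in each tissue. Snord13 did not reach the filter used for the tests below, and in a limma fit without that filter its log2 differences of KO against WT were 0.61 in cerebellum (adjusted p = 0.65), 0.33 in liver (adjusted p = 0.87) and -0.82 in testes (adjusted p = 0.41), with 95% intervals of -0.49 to 1.72, -1.58 to 2.23 and -1.97 to 0.34.

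Members of the imprinted Snord116 cluster, a set of brain snoRNAs, had almost no reads even in cerebellum. Of 17 copies, 14 had identical sequences and 16 had no count in any library. Snord116l12, which shares its sequence with no other copy, had 2, 0, 1 and 1 counts in WT cerebellum and 4, 2, 0 and 0 in KO cerebellum. The 4 copies of Snord14 (U14), which acts in 18S processing, reached at most 12.9 counts, and Snord64 was at 0 throughout. Snord3 (U3) and Snord115 were not analysed here.

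Detection followed annotated length. The median length was 84 bases for Snord and 132.5 for Snora, and the range over both was 64 to 238. Of the 87 members of 100 bases or less, 1 was detected, Snord104 at 70 bases. The 10 members of over 140 bases held 87.2% of all member counts, and 9 of them were detected. Across members, Spearman's rho between length and mean CPM was 0.605 over all 141, 0.298 within the 99 Snord and 0.263 within the 42 Snora, with the same 24 libraries behind every point. Whether fragment size selection in library preparation had a part in this was not tested.

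**Figure D1:**
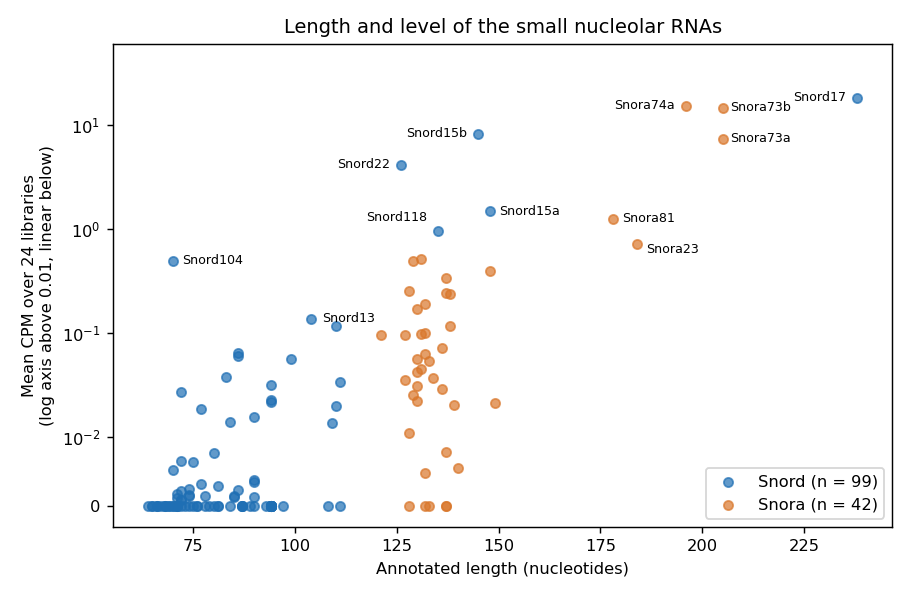
Mean CPM over 24 libraries (vertical, log axis above 0.01 and linear below) against annotated length in nucleotides (horizontal), with 1 point per member, Snord in blue and Snora in orange. Most Snord up to 100 bases lie at or near 0, and Snord17 at 238 bases is the highest point.

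Within each class a handful of RNAs carried most counts. By mean CPM, the 5 highest Snord held 96.5% of the Snord sum in cerebellum, 96.7% in liver and 95.9% in testes. The 5 highest Snora held 92.1%, 90.9% and 88.9% of the Snora sum. Since longer RNAs yield more fragments, levels between members were compared as CPM per kb of length, meaned over the 8 libraries of a tissue. This takes the yield as proportional to length, which was not tested, so close ranks are uncertain.

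Snord17, a C/D snoRNA that guides methylation of 28S ribosomal RNA, was the highest Snord in all 3 tissues, at 75.5, 80.0 and 73.8 CPM per kb in cerebellum, liver and testes. Snord15b followed at 70.9, 41.8 and 56.8 CPM per kb, then Snord22 at 42.8, 29.9 and 25.7 CPM per kb. Snord118 (U8), a C/D snoRNA needed for cleavage of the 5.8S and 28S precursor, was at 4.99, 13.0 and 2.95 CPM per kb. The means of Snord17 and Snord15b were thus close in cerebellum and well apart in liver.

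The order of the leading H/ACA RNAs differed by tissue. Snora74a (U19) was at 135 CPM per kb in cerebellum, 76.1 in liver and 23.3 in testes. Snora73b was at 95.8, 78.6 and 39.2 CPM per kb, and Snora73a at 42.4, 44.1 and 21.3. Snora74a thus led in cerebellum, was level with Snora73b in liver, and stood near Snora73a in testes. Snora81, which lies in an exon of Eif4a2, was next at 8.33, 7.15 and 5.54 CPM per kb.

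Ratios within a library need no scaling between tissues, and one of them set testes apart. Snora74a over Snord17 was 1.35 ± 0.112 (SD, n = 4) in WT cerebellum, 0.920 ± 0.181 in WT liver and 0.254 ± 0.0353 in WT testes. The ranges, 1.21 to 1.47, 0.748 to 1.16 and 0.221 to 0.295, did not overlap. Snora took 61.9% to 63.3% of member counts in WT cerebellum, 55.3% to 62.0% in WT liver and 35.1% to 40.4% in WT testes. Testes thus lay apart from both other tissues, while the highest WT liver library reached the cerebellum range. The split of the Snora73 pair varied little by tissue, with Snora73b at 58.6% to 71.3% of their summed counts over the 12 WT libraries.

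Between WT tissues, 11 members could be tested over all 24 libraries, 5 Snord and 6 Snora, after a filter of 1 CPM in at least 4 libraries. With TMM scaling in limma-voom, 6 of 11 were called lower in cerebellum than in liver and 0 higher, where 85.3% of all genes tested were called and 42.9% called lower. In testes against liver 10 were called lower and 0 higher (89.7% of all genes called, 33.9% lower). In testes against cerebellum 3 were called lower and 1 higher (89.3% of all genes called, 38.5% lower and 50.7% higher). Of the 11, 3 passed the filter only through the tissue where they were high, Snord118 and Snora23 through liver and Snora68 through cerebellum, so the filter favoured their direction and their differences are descriptions. Among the other 8 members, 4 were called lower in cerebellum than in liver, 8 lower in testes than in liver, and 3 lower and 1 higher in testes than in cerebellum.

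The calls moved with the scaling, and directions did so mostly in cerebellum against liver. Library totals turned the direction of 7, 2 and 1 of the 11 members in cerebellum against liver, testes against liver and testes against cerebellum, and quantile scaling that of 1, 1 and 2. With scaling by library totals, 5 members were called higher and 2 lower in cerebellum against liver (87.7% of all genes called), 1 higher and 5 lower in testes against liver (91.0%), and 0 higher and 7 lower in testes against cerebellum (90.0%). The median log2 difference of all genes tested also moved, from -0.04 to 1.16, from 0.87 to 1.81 and from 0.40 to 0.15. Relative to that median the members' median was -0.71, -2.43 and -1.05 with TMM and -0.71, -2.44 and -1.05 with library totals. These 2 scalings differ by 1 factor per library, which shifts all genes nearly alike, so this likeness was fixed in advance. In quantile scaling it was -0.90, -3.33 and -1.74. Members below the median of all genes numbered 10, 11 and 10 of 11 in each scaling. Between TMM and library totals this count could hardly differ, and it includes the members that the filter favoured.

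**Figure D2:**
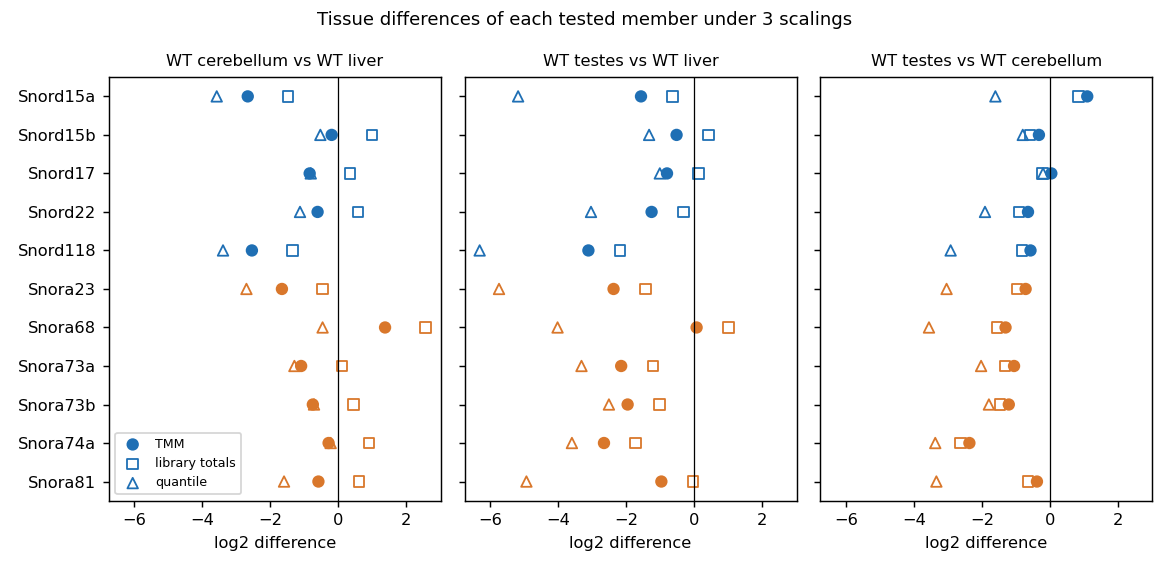
Log2 difference between WT tissues (horizontal) for each of the 11 tested members (rows), Snord in blue and Snora in orange. Filled circles are TMM, open squares library totals and open triangles quantile scaling, and Snord17 lies left of 0 with TMM and right of 0 with library totals in both contrasts with liver.

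Snora74a differed between testes and the other tissues in the same direction under all 3 scalings, and so did Snord118 between liver and the others. Snord118 reached 1 CPM in 8 of 8 liver, 1 of 8 cerebellum and 0 of 8 testes libraries, so it entered the fit through liver, and its values are given with no test. It was at 1.83, 1.72, 1.77 and 1.52 CPM in WT liver, at 0.823, 0.324, 0.599 and 1.17 CPM in WT cerebellum and at 0.592, 0.248, 0.301 and 0.408 CPM in WT testes. Every WT liver library lay above every WT library of the other tissues. The log2 difference in cerebellum against liver was -2.54 with TMM and -1.34 with library totals.

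Snora74a was at 28.0, 26.3, 25.8 and 25.1 CPM in WT cerebellum, 12.6, 12.2, 21.8 and 11.1 CPM in WT liver and 3.83, 5.02, 3.94 and 4.27 CPM in WT testes. The 3 ranges did not overlap. In testes against cerebellum its log2 difference was -2.37 with TMM, -2.63 with library totals and -3.37 with quantile scaling, called by limma in each. Cerebellum against liver gave -0.28 with TMM (adjusted p = 0.14) and 0.91 with library totals (adjusted p = 2.9e-05), so that order was not settled.

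Snora73a and Snora73b were also lower in testes. In WT testes Snora73b was at 7.19 ± 0.590 CPM (SD, n = 4), against 19.9 ± 1.03 in cerebellum and 14.7 ± 3.01 in liver. In testes against liver Snora73b was at -1.95 on the log2 scale with TMM, whereas Snhg3 was at 2.75 and Rcc1, a chromatin-binding exchange factor for Ran, at 3.90. Cerebellum against liver gave -0.74 for Snora73b and -1.09 for Snora73a, beside -1.09 for Rcc1 and 0.53 for Snhg3 on the same scale. With library totals both RNAs turned, Snora73b to 0.45 (limma, adjusted p = 0.0032) and Snora73a to 0.11 (adjusted p = 0.60). With TMM the hosts thus moved opposite to Snora73b in testes against liver, while Rcc1 and Snora73a had like values in cerebellum against liver.

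Snord15a and Snord15b gave unlike tissue differences from 1 host. Snord15a was at 0.597 ± 0.129, 1.96 ± 1.13 and 1.10 ± 0.252 CPM (SD, n = 4) in WT cerebellum, liver and testes, and Snord15b at 10.8 ± 0.571, 5.35 ± 0.319 and 7.22 ± 1.02. With TMM, cerebellum against liver gave -2.66 for Snord15a (limma, adjusted p = 1.5e-05) and -0.19 for Snord15b (adjusted p = 0.28) on the log2 scale. Rps3, a ribosomal protein gene, was at -1.71 with TMM. Snord15b went to 1.00 with library totals (limma, adjusted p = 5.8e-06) and to -0.52 with quantile scaling (adjusted p = 0.0035). Snord15a stayed below 0 in these, at -1.47 (adjusted p = 0.0064) and -3.57 (adjusted p = 3.9e-08). Snord15a was also the member called higher in testes than in cerebellum, at 1.10 with TMM (adjusted p = 0.038), against 0.84 with library totals (adjusted p = 0.11) and -1.60 with quantile scaling (adjusted p = 0.0037), so its direction turned with the scaling. With TMM the call held in 2 of 8 omissions of 1 library, those of WT cerebellum replicate 2 and WT testes replicate 1, with adjusted p of up to 0.088 in the others, and it was lost without a filter (adjusted p = 0.059). Reads of the exonic Snord15b and of Rps3 mRNA overlap, and 46.6% of the members' nonzero counts were not whole numbers (tolerance 0.01), against 14.1% for all genes.

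The comparison of KO with WT asked whether snoRNAs differ in tissues that lack Thumpd1. In bulk tissue, fewer cells of a type and less RNA per cell cannot be told apart. The filter of 1 CPM in at least 4 of 8 libraries left 8 members for cerebellum (3 Snord and 5 Snora), 10 for liver (5 and 5) and 8 for testes (4 and 4). At the edge of that filter, the lowest member tested and the highest not tested had mean CPM of 0.926 (Snora68) and 0.674 (Snord118) in cerebellum, 1.15 (Snora23) and 0.702 (Snora57) in liver, and 0.985 (Snora81) and 0.418 (Snord104) in testes.

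Of the tested members 1 was called, Snord17 in liver. In liver 1 of 10 members was called higher and 0 lower, where limma called 5.91% of all genes in either direction and 2.79% higher. There 3 of 10 had an unadjusted p under 0.05 in limma, as did 2981 of 12816 genes. In cerebellum 0 of 8 were called (6.44% of all genes) and 1 had an unadjusted p under 0.05 in limma, in edgeR and in DESeq2, each with 0 called. Of 16225 genes such a p was found for 3929 in limma, 3865 in edgeR and 3406 in DESeq2. In testes 0 of 8 were called (20.5% of all genes), with 0 at an unadjusted p under 0.05 in limma and 2 each in edgeR and DESeq2, again with 0 called. Of 19329 genes such a p was found for 7145 in limma, 7413 in edgeR and 7292 in DESeq2.

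Snord17 in WT liver was at 13.3, 14.9, 18.8 and 14.9 CPM, and in KO liver at 22.3, 25.1, 20.4 and 22.7 CPM. Every KO library lay above every WT library, as was so for 1 of the 10 members, while 12.7% of all genes tested in liver had KO libraries all above or all below WT. The means were 15.4 ± 2.34 and 22.6 ± 1.91 CPM (SD, n = 4 each), a rise of 0.56 ± 0.13 (SE) on the log2 scale with a 95% interval of 0.28 to 0.84 (limma, adjusted p = 0.029). Snx5, the sorting nexin gene whose intron holds Snord17, gave 0.07 ± 0.10 (adjusted p = 0.72). The call was lost when WT liver replicate 1 or 2, or KO liver replicate 5, 6 or 8, was left out, with log2 values of 0.45 to 0.67 and adjusted p of 0.018 to 0.094 over the 8 omissions, and without a filter it had an adjusted p of 0.065.

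**Figure D3:**
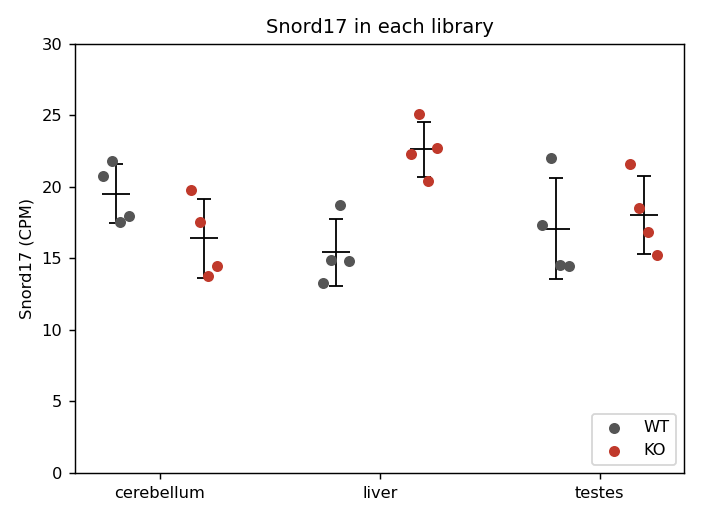
Snord17 CPM (vertical) in each library by tissue, WT in grey and KO in red, with black marks for the mean and SD of 4 libraries. KO livers lie between 20.4 and 25.1 CPM, above the WT livers at 13.3 to 18.8, and the other tissues overlap.

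In the other tissues Snord17 was not called. Cerebellum libraries were at 20.8, 21.8, 17.5 and 18.0 CPM in WT and 19.8, 17.5, 13.8 and 14.5 CPM in KO, which overlapped. The log2 difference was -0.30 ± 0.11 (SE) and was not called (limma, adjusted p = 0.11). Testes libraries were at 17.3, 22.0, 14.5 and 14.5 CPM in WT and 21.6, 18.6, 16.8 and 15.2 CPM in KO, with a log2 difference of -0.02 ± 0.14 (adjusted p = 0.93, 95% interval -0.34 to 0.30).

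The effect of KO on Snord17 was called different between cerebellum and liver, and less firmly between testes and liver. Over the 7 members tested in all 3 tissues, the log2 KO effect in cerebellum minus that in liver was called for 1, Snord17, at -0.85 ± 0.21 (SE, limma with TMM, adjusted p = 0.016), where 7.67% of all genes were called. Testes minus liver was also called for Snord17 alone, at -0.61 ± 0.20 (adjusted p = 0.036, 15.9% of all genes). That second call held in 8 of 16 omissions of 1 library, with adjusted p of up to 0.090, and was lost without WT liver replicate 1 or 2, KO liver replicate 5 or 6, WT testes replicate 1 or 2, or KO testes replicate 7 or 8. With library totals its adjusted p was 0.062. Both differences use the same liver libraries. The same contrasts for Snx5 gave -0.17 (adjusted p = 0.34) and 0.10 (adjusted p = 0.54). Testes minus cerebellum had 0 of 7 called (14.5% of all genes), and 0 at an unadjusted p under 0.05 in limma and edgeR.

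The other liver members were higher in KO by mean CPM in every case, 10 of 10 with Snord17, but none of the others was called. Such directions, here and in the other tissues, come from the same libraries and have no share of all genes beside them. Snora73b was at 16.9, 17.4, 13.3 and 11.1 CPM in WT and 16.3, 17.1, 16.5 and 20.2 CPM in KO, with 0.28 ± 0.11 on the log2 scale (limma, adjusted p = 0.17). Snord15b was at 5.31, 5.81, 5.24 and 5.06 CPM in WT and 6.64, 5.27, 6.48 and 8.74 CPM in KO, with 0.31 ± 0.14 (adjusted p = 0.21), beside 0.37 for Rps3 (adjusted p = 0.058). For both RNAs the groups overlapped. Snora73a gave 0.17 ± 0.17 (adjusted p = 0.59). For Snord118 and Snora81 the fitted values, -0.08 and -0.59, were below 0 although the mean CPM was higher in KO.

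Snord15a varied widely among livers of the same genotype. It was at 0.837, 1.33, 2.27 and 3.41 CPM in WT replicates 1 to 4 and at 5.16, 4.96, 1.40 and 1.98 CPM in KO replicates 5 to 8. The groups overlapped and the log2 difference was 0.51 ± 0.53 (SE, limma, adjusted p = 0.61). It ran from 0.13 to 0.97 when 1 library was left out. In the same libraries 6 abundant noncoding genes (Rn7s1, Rn7s2, Rn7sk, Rpph1, Gm26917 and Gm42418) took 17.5%, 19.0%, 23.1% and 31.0% of the WT totals and 27.2%, 26.4%, 18.8% and 17.5% of the KO totals. The 3 livers with the largest share of these genes, WT replicate 4 and KO replicates 5 and 6, were thus also the 3 with the most Snord15a.

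Snord104 and Snord22 ran the other way in those livers. Snord104 had 25, 32, 10 and 1 counts in WT replicates 1 to 4 and 1, 2, 27 and 62 counts in KO replicates 5 to 8. Snord22, which lies in an exon of Snhg1, was at 3.96, 3.98, 3.92 and 2.07 CPM in WT and 2.30, 2.53, 4.59 and 6.77 CPM in KO. WT replicate 4 and KO replicates 5 and 6 held the 3 lowest values of both RNAs. These libraries were picked out after their values were seen, and the part of the abundant noncoding RNAs or of RNA quality in this was not tested.

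In cerebellum 2 of the 8 tested members had the higher mean CPM in KO. Snora68 was at 1.03, 0.903, 0.832 and 1.38 CPM in WT and 0.722, 1.43, 0.109 and 1.00 CPM in KO, with -0.96 ± 0.58 on the log2 scale (limma, adjusted p = 0.33). With 1 library left out this ran from -1.37 to -0.079. The other members with the lowest p were Snora73a at -0.22 ± 0.14 (adjusted p = 0.36), Snord15b at -0.21 ± 0.14 (adjusted p = 0.38) and Snora81 at -0.39 ± 0.32 (adjusted p = 0.49). None of them separated the groups, and none of the 8 did (13.8% of all genes). Beside this, 8 midbrain markers summed to 34.8 to 43.1 CPM in WT and 60.2 to 99.3 CPM in KO cerebellum, with 8 of 8 higher in KO, and 8 forebrain markers to 81.6 to 87.7 and 115 to 150 CPM, with 7 of 8 higher. Choroid plexus markers, 6 genes of which 0 were higher in KO by mean, summed to 1052, 1078, 18.6 and 17.8 CPM in WT replicates 1 to 4 and to 22.2, 23.5, 362 and 362 CPM in KO replicates 5 to 8. Snord summed to 40.3, 38.8, 34.8 and 39.3 CPM in these WT libraries and to 39.7, 39.6, 27.1 and 29.0 CPM in these KO libraries. The KO libraries with more choroid plexus RNA thus had the lower Snord sums, and the WT libraries with more of it did not. The part of these markers in the member values was not tested.

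In testes 7 of the 8 tested members had the higher mean CPM in KO, with small differences. Snora73a was at 4.79, 3.37, 3.10 and 3.59 CPM in WT and 5.73, 4.72, 6.08 and 3.61 CPM in KO, with 0.32 ± 0.17 on the log2 scale (limma, adjusted p = 0.20). Its host Rcc1 fell by 0.37 (adjusted p = 0.0073), and Snhg3 gave -0.20 (adjusted p = 0.38). Snord15b gave 0.25 ± 0.13 (adjusted p = 0.18), Snora73b 0.19 ± 0.11 (adjusted p = 0.25), Snord22 0.28 ± 0.20 (adjusted p = 0.34) and Snord15a 0.24 ± 0.20 (adjusted p = 0.40). With 1 library left out, Snord22 ran from 0.079 to 0.42 and Snord15a from 0.038 to 0.35. No tested member separated the groups (28.6% of all genes did). Beside this, 8 Sertoli cell markers summed to 962 to 1138 CPM in WT and 1226 to 1777 CPM in KO testes, 8 of 8 higher, and 8 round spermatid markers to 1206 to 1240 and 959 to 1155 CPM, 0 of 8 higher. The part of these cell types in the member values was not tested.

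**Figure D4:**
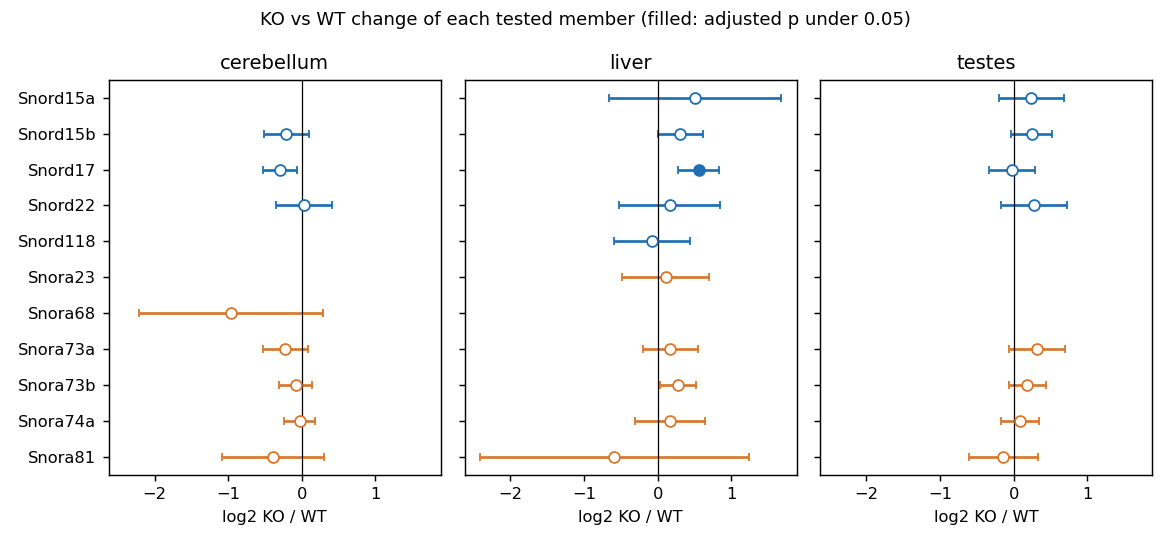
Log2 KO over WT (horizontal) with 95% intervals from limma for each member tested (rows) in cerebellum, liver and testes, Snord in blue and Snora in orange. The filled point, Snord17 in liver at 0.56, is the only one with an adjusted p under 0.05, and rows without a point were not tested in that tissue.

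Of the members that had a count in a tissue but were left out by the filter, 1 of 63 in cerebellum, 1 of 49 in liver and 1 of 58 in testes separated WT from KO, against 2.73%, 2.74% and 4.33% of all genes left out in the same way. Members passing 3 counts in at least 4 libraries numbered 12, 9 and 12 of these. The 3 are named after their values were seen. In testes it was Snord104. It had 7, 7, 5 and 3 counts in WT testes (0.218, 0.217, 0.167 and 0.0943 CPM) and 27, 19, 17 and 18 counts in KO testes (0.864, 0.697, 0.464 and 0.623 CPM). Every KO library lay above every WT library. In a limma fit without the filter, where 7.03% of 39718 genes were called, its log2 difference was 1.72 ± 0.34 (SE, adjusted p = 0.015), with a 95% interval of 0.97 to 2.47. In cerebellum Snord104 was at 0.324 to 0.612 CPM in WT and 0.255 to 0.550 CPM in KO, which overlapped. In liver it varied widely within each genotype, at 0.037 to 1.04 CPM in WT and 0.050 to 2.05 CPM in KO, again with overlap. In cerebellum Snora44 was at 0.584 to 1.11 CPM in WT and 0.437 to 0.498 CPM in KO, and the fit without the filter gave -0.79 (adjusted p = 0.20). In liver Snord8 had 2, 2, 1 and 0 counts in WT and 3, 2, 4 and 4 in KO, with 1.57 in that fit (adjusted p = 0.24), and it separated the groups by CPM but not by counts.

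Summed over each whole class, the members gave 1 pair of groups without overlap, Snord in liver. Snord summed to 26.6 to 32.6 CPM in WT liver and 35.9 to 45.5 CPM in KO liver, with means of 29.0 ± 2.72 and 39.9 ± 4.01 (SD, n = 4 each), 1.38 times as high in KO. These did not overlap, nor with the abundant noncoding genes taken out of the totals, where KO was 1.37 times WT. Snord17 made up 55.3% of the liver Snord sum, and without it the sum was 1.28 times as high in KO, with overlap, at 12.3 to 14.6 CPM in WT and 14.2 to 22.8 CPM in KO liver. Snord sums in cerebellum were 38.3 ± 2.42 CPM in WT and 33.9 ± 6.72 in KO, and in testes 29.6 ± 4.54 and 34.4 ± 5.00, both with overlap. Without Snord17 the testes sums were 12.5 ± 1.06 CPM in WT, reaching 13.7, and 16.4 ± 2.60 CPM in KO (SD, n = 4 each), starting at 13.9, so the groups did not overlap, while those in cerebellum did. Taking out Snord17 thus moved the separation from liver to testes.

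Snora sums overlapped between WT and KO in each tissue. WT and KO means were 63.2 ± 2.29 and 61.1 ± 12.3 CPM (SD, n = 4) for cerebellum, 43.3 ± 7.37 and 50.1 ± 6.67 CPM for liver, and 18.7 ± 1.56 and 22.5 ± 2.37 CPM for testes. The related Cajal body RNAs (Scarna symbols, no members here) summed to 45.5 to 53.4 CPM in WT liver and 54.9 to 86.0 CPM in KO liver, again without overlap. The 2 highest of these KO livers were replicates 5 and 6, described above for Snord15a.

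**Figure D5:**
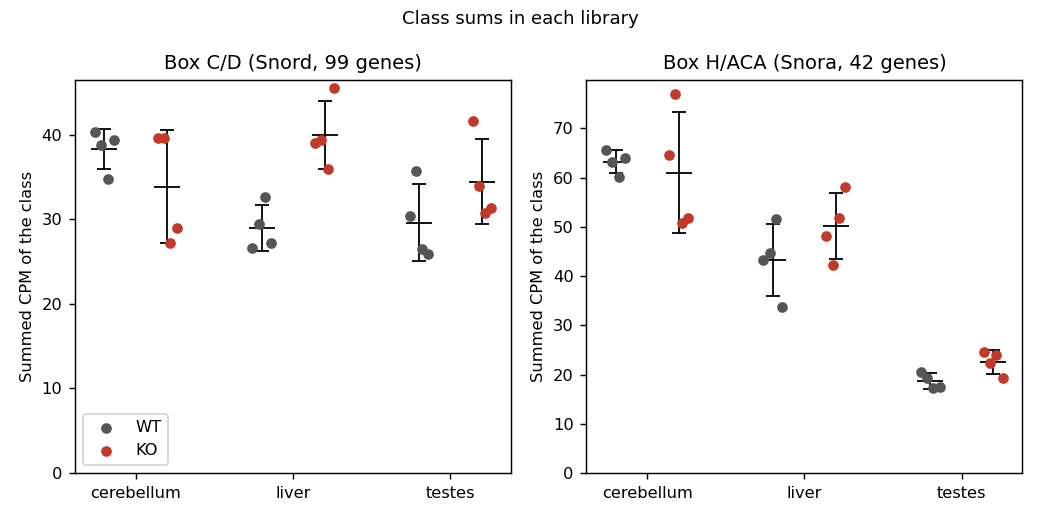
Summed CPM (vertical, from 0) of the 99 Snord (left) and 42 Snora (right) in each library by tissue, WT in grey and KO in red, with black marks for the mean and SD of 4 libraries. Snord sums in KO liver, 35.9 to 45.5 CPM, lie above those in WT liver, and every other pair of groups overlaps.

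Genes of proteins that bind snoRNAs were read from lists. None of the C/D core genes (Fbl, the methyltransferase fibrillarin, with Nop56, Nop58 and Snu13) was called in cerebellum or liver by limma (6.44% and 5.91% of all genes), where 2 and 0 of the 4 had an unadjusted p under 0.05, and in testes 1 of 4 was called (20.5% of all genes) and 2 had an unadjusted p under 0.05. This was Nop56, which rose by 0.43 ± 0.09 on the log2 scale (adjusted p = 0.0095). The 4 H/ACA core genes (Dkc1, the pseudouridine synthase dyskerin, with Nop10, Nhp2 and Gar1) had 0 called in each tissue, and at an unadjusted p under 0.05 there were 2 in testes and 0 in the other tissues. Of all genes tested, 3929 of 16225 in cerebellum, 2981 of 12816 in liver and 7145 of 19329 in testes had such a p.

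Of 18 names on the assembly and maturation list, on which Tent4b and Papd5 are the same gene, 17 were tested. In cerebellum and liver 0 were called (6.44% and 5.91% of all genes). In both, 0 had an unadjusted p under 0.05 (3929 of 16225 and 2981 of 12816 of all genes). In testes 3 were called, where 20.5% of all genes were, and 7 of 17 had an unadjusted p under 0.05, as did 7145 of 19329 genes. Of the 3, 1 rose, Tgs1, which makes the trimethyl cap, by 0.35 (adjusted p = 0.023). There Pih1d1, of the R2TP assembly complex, fell by 0.30 (adjusted p = 0.011), and Tent4b, a poly(A) polymerase that adds tails to such RNAs, fell by 0.17 (adjusted p = 0.022). Nat10 gave 0.14 in cerebellum (adjusted p = 0.11), -0.08 in liver (adjusted p = 0.56) and 0.06 in testes (adjusted p = 0.45).

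Noncoding genes that host small RNAs were read as a list of 22, of which 18, 17 and 18 were tested. The list was not limited to hosts of members. The test called 2 in cerebellum (6.44% of all genes), 3 in liver (5.91%) and 2 in testes (20.5%). In cerebellum 2 fell, Snhg11 by 0.24 (limma, adjusted p = 0.0014) and Rian by 0.19 (adjusted p = 0.018), and 0 rose. In liver Meg3 and Rian, neighbouring maternally expressed RNAs, rose by 1.34 ± 0.18 (adjusted p = 0.0029) and 1.29 ± 0.20 (adjusted p = 0.0048), and Snhg11 fell by 0.66 (adjusted p = 0.013). In testes Zfas1 rose by 0.35 (adjusted p = 0.035) and Meg3 by 0.31 (adjusted p = 0.042). Snhg1, host of Snord22, and Snhg3, host of the Snora73 pair, were not called in any tissue.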

How the data were processed

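RNA was measured in 24 libraries. The authors deposited 1 table of expected counts per gene, made with STAR and RSEM on mm10 and GENCODE M21. Tool versions and the strand setting of the counting were not given in the sources used here, so how reads were divided between a member and a host exon or an antisense gene over it (Gm17300 for Snora73a and Snora73b) could not be checked. All 141 symbols matched the annotation, 3 named a pair of genes each and were kept apart by identifier, and 0 columns went unused. The members and lists were chosen with earlier results of these data known.

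From these counts CPM was computed. KO and WT were compared within each tissue on genes with at least 1 CPM in at least 4 of 8 libraries, by voom with quantile normalization and limma 3.58.1 in R 4.3.3. WT tissues and differences of the KO effect were fitted together, on the 24 libraries scaled by TMM (edgeR 4.0.16). All p-values are two-sided and adjusted by Benjamini-Hochberg over all genes tested, with a threshold of 0.05. Alternatives were edgeR on rounded counts, DESeq2 1.42.0, other scalings, other filters, a replicate block and leaving out each library. Scripts were tested on simulated counts. A few items are not reported here.

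Named members were a set chosen by role, those called, the 5 with the lowest p per tissue, the 4 largest tissue differences per class and direction, and the 5 highest per class and tissue. Replicate numbers of the 3 tissues were compared within a genotype: 24 pairs gave correlations of deviations from -0.18 to 0.25, of which 6 were above 0.1, so the numbers were not taken as pairs. Over 36 pairs of replicates the chi-square per gene was 2.31 to 346, so none was a copy.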

Additional observations from a re-analysis of the deposited data

Results flagged for a closer look

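In 78 groups of 4 libraries, 6 had a highest or lowest library whose gap to its neighbour, as a share of the group's range, passed Dixon's 95% limit, where chance passes about 1 group in 20. In WT liver replicate 3, Snora74a was at 21.8 CPM against 11.1 to 12.6 (gap share 0.865). In WT liver replicate 4, Snora81 was at 1.41 CPM against 0.877 to 0.923 (0.913) and Snord22 at 2.07 CPM against 3.92 to 3.98 (0.967). In KO testes, Snora74a was at 4.39 CPM in replicate 8 against 5.02 to 5.09 (0.895) and Snord118 at 0.608 CPM in replicate 5 against 0.330 to 0.355 (0.910). Snord118 in KO cerebellum replicate 6 was at 0.978 CPM against 0.460 to 0.526 (0.872).

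The KO effect on Snord17 differed between tissues by a test of the difference, by -0.85 on the log2 scale between cerebellum and liver (limma, adjusted p = 0.016) and by -0.61 between testes and liver (adjusted p = 0.036). The second difference passed the threshold in 8 of 16 omissions of 1 library and had an adjusted p of 0.062 under library totals. Both use the same liver libraries, where the call of Snord17 between KO and WT held in 3 of 8 omissions.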

How the results depend on the processing

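The low counts limited how many members could be tested: 11 members passed the filter anywhere, and members under the limit of 3 counts had too few reads for a firm comparison. Among counts of called members, KO against WT in liver went from 1 to 0 with no filter, and to 0 to 1 when 1 library was left out. In testes it went from 0 to 1 with no filter, the 1 being Snord104. Between WT tissues, leaving out the filter gave 20 in cerebellum against liver, 48 in testes against liver and 16 in testes against cerebellum. Library totals gave 6 in testes against liver. Testes against cerebellum gave 7 with edgeR or library totals, 10 with quantile scaling and 8 with WT libraries only. Leaving out 1 library gave 6 to 7, 9 to 10 and 3 to 6 in these contrasts. For the difference of the KO effect, cerebellum against liver gave 1 to 2 (2 without KO cerebellum replicate 6) and testes against liver 0 to 1, with 0 under library totals. The latter call of Snord17 was lost without WT liver replicate 1 or 2, KO liver replicate 5 or 6, WT testes replicate 1 or 2, or KO testes replicate 7 or 8. In cerebellum against liver Snord17 was called in all 16 omissions, at -0.96 to -0.75.

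Library totals, an alternative chosen after the data were seen, turned 7 of 11 tested members to above 0 in cerebellum against liver: Snora73a (0.11), Snora73b (0.45), Snord17 (0.36), Snora74a (0.91), Snord15b (1.00), Snora81 (0.61) and Snord22 (0.59). In testes against liver it turned Snord17 (0.14) and Snord15b, which went from -0.51 and called lower (adjusted p = 0.0061) to 0.42 and called higher (adjusted p = 0.019), and in testes against cerebellum Snord17 (-0.22). Quantile scaling turned 1, 1 and 2 members in these contrasts: Snora68 in both contrasts with liver (-0.46 and -4.01), and Snord15a (-1.60) and Snord17 (-0.20) in the last. The all-gene median moves with these scalings. With any count above 0, cerebellum had 34 Snord and 37 Snora, liver 23 and 36, and testes 33 and 33, and at 1 CPM in 4 libraries these were 3 and 5, 5 and 5, and 4 and 4. A replicate block gave 6, 10 and 4 called between tissues and 1, 1 and 0 for the KO effect, and changed no call of Snord17 (-0.86, adjusted p = 0.0043, and -0.63, adjusted p = 0.013). Over the pairs of a member and a contrast that the rule for named members gave and each alternative run, 524 values kept direction and side of the threshold, 26 lost their call and 5 turned. The cause of each change was not tested.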
